A study of Mus musculus musculus x M. m. domesticus and Mus musculus domesticus and Mus musculus with 12 samples.

Results

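The comparison set the testes of fertile hybrid males against those of fertile males from a cross within Mus domesticus. Its members were the 6 males, of 12 in the series, that the labels place in these genotypes. The 3 DxM males were F1 offspring of LEWES/EiJ and PWK/PhJ. The 3 DxD males were F1 offspring of LEWES/EiJ and WSB/EiJ. Genotypes are written with the mother first. LEWES/EiJ and WSB/EiJ are wild-derived inbred strains of M. domesticus, and PWK/PhJ is a wild-derived inbred strain of M. musculus. All 6 males were 60 days old and untreated, and RNA came from whole testis. Both genotypes had a LEWES/EiJ mother, so their X chromosome and the maternal copy of every autosome came from the same strain. The father's autosomes and Y chromosome came from WSB/EiJ in DxD and from PWK/PhJ in DxM. Each genotype is therefore 1 cross of 2 inbred lines, and differences between the species cannot be told apart from differences between these 2 fathers' strains. The other 6 males, from MxM (PWK/PhJ mother, CZECHII/EiJ father) and from the sterile hybrid MxD (PWK/PhJ mother, LEWES/EiJ father), are used below for comparison.

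Spermatogenesis passes from mitotic spermatogonia through meiotic spermatocytes to postmeiotic round spermatids, supported by Sertoli cells within the tubules and by hormone-producing Leydig cells between them. In male meiosis the unpaired X and Y chromosomes are transcriptionally silenced, and a subset of X-linked genes is expressed again in spermatids. Reciprocal hybrids of these mouse species can differ in fertility although their autosomes come from the same pair of strains. They differ in the origin of the X chromosome, the Y chromosome and the mitochondria, and in which parent gave each copy of an imprinted gene. In whole testis, fewer cells of a type and less RNA per cell cannot be told apart.

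Each array gave 1 log2 expression value for each of the 7000 genes in the deposited table. Differences are DxM minus DxD on this log2 scale, so that a positive value means higher in the hybrid. A gene is called when limma's moderated test over all genes gave a Benjamini-Hochberg adjusted p under 0.05. The median within-genotype SD of a gene was 0.080 in DxD and 0.11 in DxM (n = 3 males each). The values of no pair of arrays were identical.

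Of the 7000 genes, 1249 (17.8%) were called between DxM and DxD. In DxM 592 (8.46%) were higher and 657 (9.39%) were lower. The typical called difference was small, with a median size of 0.39, which is 1.31-fold, and 905 of the called genes differed by less than 0.5. Only 56 genes differed by at least 1 (a doubling or halving), 35 of them higher and 21 lower in DxM. Over all genes the median difference was 0.00 and the median size was 0.13. The paper reports quantile normalization, which gives all arrays nearly the same distribution. The median of 0.00 and the near balance of directions are favoured by this step, and rises in some genes are offset by falls in others. The 3 DxM and the 3 DxD values did not overlap for 2640 genes (37.7%), a group that held 1248 of the called genes. The replicate numbers were also fitted as a block of pairs, since the deviations of same-numbered DxD and DxM males from their genotype means correlated at 0.75, 0.43 and 0.16 for replicates 1 to 3. Some males with different numbers correlated as well: DxD replicate 3 with DxM replicate 2 at 0.50, above the 0.43 of the replicate 2 pair, and DxD replicate 2 with DxM replicate 3 at 0.14. Only the replicate 1 pair was set apart by its number, so the blocked values rest on a pairing that the data show clearly for that pair alone. The blocked fit called 2318 genes (33.1%), including all 1249, with 1116 (15.9%) higher and 1202 (17.2%) lower.

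**Figure D1:**
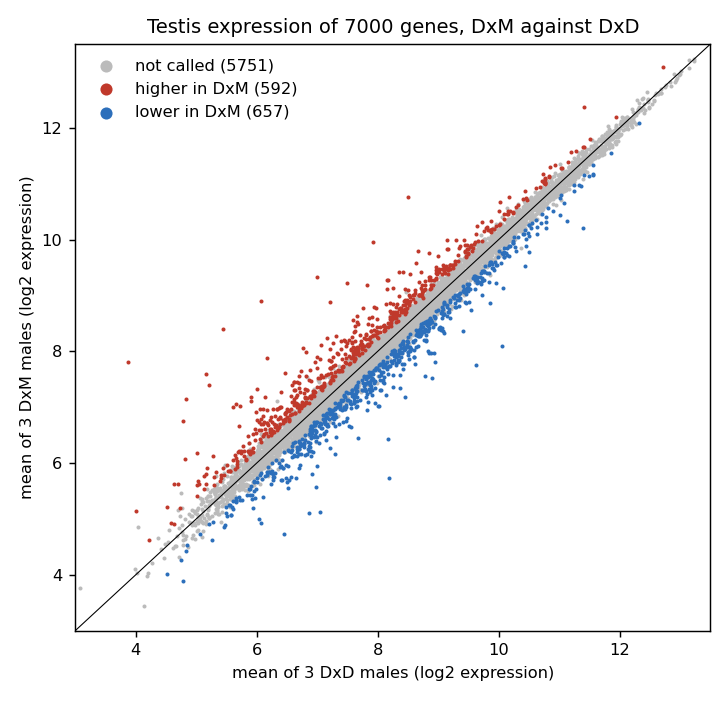
Mean log2 expression of each of 7000 genes in the 3 DxD males (x axis) and the 3 DxM males (y axis), with the 592 genes called higher in DxM in red, the 657 called lower in blue and the rest in grey. Most called genes lie close to the line of equality, and 35 lie at least 1 above it against 21 at least 1 below it.

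The share of genes called was largest among dim genes. With the genes split by mean level into 4 groups of 1750, it was 21.8% in the dimmest group, 20.0% and 18.7% in the next groups and 10.8% in the brightest. The balance of directions was near even in each group, with 187 higher and 195 lower in the dimmest and 90 higher and 99 lower in the brightest. Quantile normalization can favour such a balance. Probe sequences came from a laboratory mouse genome in which M. domesticus ancestry predominates, and DxM males carry a M. musculus copy of each autosome. The part that probe mismatch has in these differences was not tested. Leaving out 1 male also moved the number of calls: it was 623 without DxD replicate 2 and 686 without DxD replicate 3, and between 890 and 1093 without any other male.

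The study's annotation as used here places 1102 of these genes in the testis cell type in which published data on enriched cells showed their highest induction. The copy of the annotation used here was cut short at 1997 genes. It covers chromosomes 1 to 4 and, of chromosome 5, only genes that have a cell type. A class label says where a gene is most induced, not that other cells lack it. Over the 1997 genes, 375 (18.8%) were called, 184 higher and 191 lower. The classes also differed in level, which the shares over all genes used below do not match. The median level was 7.44 for mitotic, 9.64 for meiotic, 9.65 for postmeiotic and 6.64 for somatic genes. The classes differed in how their calls divided between the directions. Mitotic genes were mostly higher in DxM, meiotic genes and called postmeiotic genes were mostly lower, and somatic genes were split.

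Of 367 mitotic genes, those most induced in spermatogonia, 55 (15.0%) were called higher in DxM and 11 (3.00%) lower, against 8.46% and 9.39% of all genes. The median difference of the class was 0.09 (quartiles -0.02 and 0.20), and 260 of its members (70.8%) were positive. The called increases had a median of 0.34, or 1.27-fold, so most of the class moved by little. Only 7 called mitotic genes were higher by at least 0.5 and 3 were lower by as much. The class mean in each male, as a deviation from the mean of the 6 males, was -0.088, -0.032 and -0.033 in DxD replicates 1 to 3 and 0.043, 0.074 and 0.037 in the DxM males. The 2 genotypes did not overlap, so the hybrid was higher in any pairing of the males. Within the numbered pairs it was higher by 0.131, 0.106 and 0.070. The blocked fit called 95 mitotic genes higher (25.9%) and 21 lower (5.72%), against 15.9% and 17.2% of all genes.

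The 324 meiotic genes, those most induced in spermatocytes, lay on the other side. In DxM 12 (3.70%) were called higher and 43 (13.3%) lower, against 8.46% and 9.39% of all genes. The class is bright, and of the brightest 1750 genes only 90 were called higher and 99 lower. The median difference was -0.06, and 126 members (38.9%) were positive. The called decreases had a median of -0.39, or 1.31-fold. No called meiotic gene was higher by 0.5 or more, while 12 were lower by at least 0.5. The class mean was 0.041, 0.040 and 0.029 in the DxD males and -0.040, -0.051 and -0.019 in the DxM males, again without overlap. The hybrid was therefore lower in any pairing, and the differences within the numbered pairs were -0.081, -0.091 and -0.047. The blocked fit called 37 higher (11.4%) and 69 lower (21.3%), against the same 15.9% and 17.2%.

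**Figure D2:**
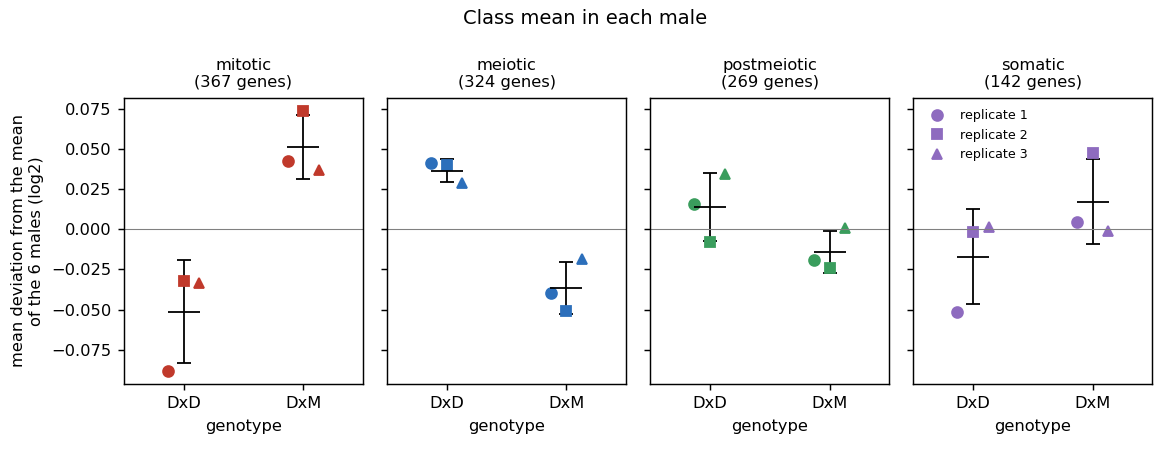
Mean deviation of the genes of each class in each male (y axis, log2 units from the mean of the 6 males) by genotype (x axis), with a symbol for each replicate number and with bars for the mean and SD of 3 males. The 3 DxM males lie above the 3 DxD males for mitotic genes and below them for meiotic genes, and the genotypes overlap for postmeiotic and somatic genes.

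Postmeiotic genes, those most induced in round spermatids, had the highest share of calls of the 4 classes in the main fit, though not in the blocked one. Of 269 members 62 were called, 21 higher (7.81%) and 41 lower (15.2%), against 8.46% and 9.39% of all genes. The share called higher was near that of all genes. The class is bright, however, and of the brightest 1750 genes only 90 were called higher and 99 lower. The median difference of the class was 0.00, and 137 members (50.9%) were positive. Calls of at least 0.5 were 9 higher and 10 lower. The class mean was 0.016, -0.008 and 0.034 in the DxD males and -0.019, -0.024 and 0.001 in the DxM males, so the genotypes overlapped. Within each numbered pair the hybrid was lower, by -0.035, -0.016 and -0.033. That shared sign rests on the numbering, since DxM replicate 3 lay above DxD replicate 2. The class had a mean difference below 0 and a median difference at 0, with quartiles of -0.17 and 0.10.

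The 142 somatic genes, those most induced in Sertoli cells, had 18 calls higher (12.7%) and 13 lower (9.15%), against 8.46% and 9.39% of all genes, with a median difference of 0.03. Their class mean was -0.051, -0.002 and 0.002 in DxD and 0.005, 0.048 and -0.001 in DxM. The genotypes overlapped, and DxD replicate 1 was the lowest male. Without DxD replicate 1 the median difference was 0.00. Among the 895 genes with no cell type, 78 were called higher (8.72%) and 83 lower (9.27%), close to the shares over all genes. The blocked fit called 58 of the 142 somatic genes, 32 higher and 26 lower. That was a larger share than its 98 of the 269 postmeiotic genes, 36 higher and 62 lower.

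**Figure D3:**
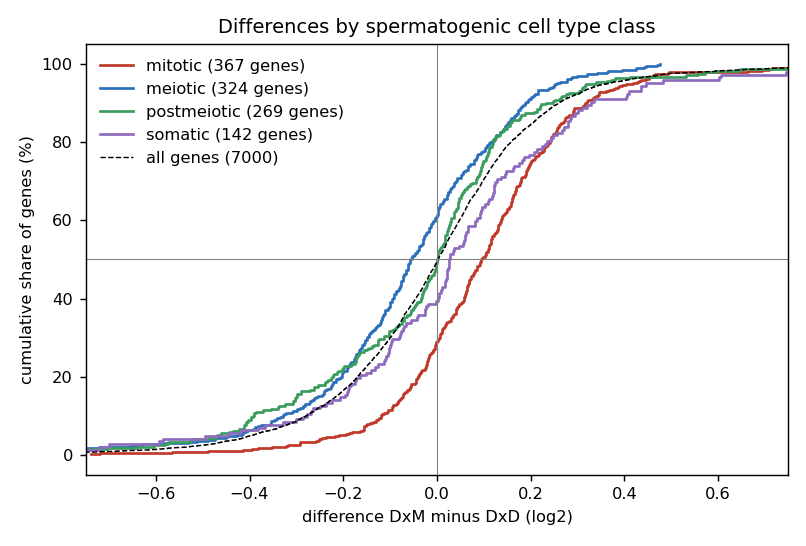
Cumulative share of genes (y axis, percent) against the difference DxM minus DxD (x axis, log2, drawn from -0.75 to 0.75) for 367 mitotic, 324 meiotic, 269 postmeiotic and 142 somatic genes and, dashed, for all 7000 genes. The mitotic curve lies to the right of the dashed line, with a median of 0.09. The meiotic curve lies to the left, with a median of -0.06. The postmeiotic genes have a median of 0.00 and quartiles of -0.17 and 0.10.

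The opposite directions of the mitotic and meiotic classes held on each of chromosomes 1 to 5. Their genes on other chromosomes were not analysed here. Mitotic calls were 10 higher and 1 lower on chromosome 1, 13 and 5 on chromosome 2, 9 and 1 on chromosome 3, 12 and 3 on chromosome 4, and 11 and 1 on chromosome 5. The median difference of the class was between 0.08 and 0.13 on these chromosomes. Meiotic calls were 4 higher and 9 lower on chromosome 1, 2 and 7 on chromosome 2, 2 and 6 on chromosome 3, 3 and 8 on chromosome 4, and 1 and 13 on chromosome 5. Its median difference was negative on all 5, from -0.09 to -0.02. On chromosomes 1 to 4, where genes without a cell type were included, the share of genes called ran from 16.1% of 589 genes on chromosome 2 to 22.4% of 361 genes on chromosome 3.

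The class counts depended on the number of males. Without DxD replicate 2 the mitotic calls were 19 higher and 5 lower, and without DxD replicate 3 they were 22 and 5. Without DxD replicate 1, DxM replicate 2 or DxM replicate 3 the mitotic increases numbered 34, 36 and 31. The meiotic calls were 5 higher and 21 lower without DxD replicate 2, 5 and 25 without DxD replicate 3, and 5 and 26 without DxM replicate 3. In the postmeiotic class they were 9 higher and 23 lower without DxD replicate 2, 13 and 22 without DxD replicate 3, and 14 and 33 without DxM replicate 3. The order of the directions in these 3 classes was the same with each male left out.

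On the same scale, the class means of MxD ran further from DxD than those of DxM. In the sterile MxD males the mitotic class was at 0.192, 0.157 and 0.276, above all 3 DxM males, and the postmeiotic class was at -0.164, -0.236 and -0.275, below all 3 DxM males. The meiotic class was at -0.109, -0.057 and -0.088 in MxD, also below each DxM male. In MxM the postmeiotic class was at -0.014, 0.044 and -0.015, the mitotic class was at -0.044, -0.020 and 0.070 and the meiotic class was at -0.019, -0.045 and -0.101. All 3 ranges overlap those of the DxM males. Fertile DxM thus lay on the same side of DxD as sterile MxD for mitotic and meiotic genes. Fertile MxM also lay below all 3 DxD males for meiotic genes, while its mitotic range overlapped that of DxD. These are descriptions on a scale set by the DxM and DxD males, and differences from the other genotypes were not tested for the classes.

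The largest single differences are given for the 2 genes that rose most and the 2 that fell most. They were taken among called genes whose DxM and DxD males did not overlap. They are given by the identifiers of the table, which pairs no symbols with them. ENSMUSG00000038170, on chromosome 3, was listed at 3.87 in all 3 DxD males and at 7.78, 7.77 and 7.87 in DxM. Its difference was 3.93 (SE 0.06, adjusted p = 1.6e-08). The DxD value was identical in the 3 males and was the third lowest on their arrays, so the size of the difference rests on the bottom of the scale. The gene was high wherever a PWK/PhJ copy was present, at 8.80 ± 0.05 in MxM and 7.61 ± 0.09 in MxD (SD, n = 3). ENSMUSG00000032741 was at 5.75, 5.34 and 5.27 in DxD and at 8.67, 8.04 and 8.47 in DxM, a difference of 2.94 (SE 0.18, adjusted p = 3.2e-05). It too was high in MxM, at 8.30 ± 0.31, and in MxD, at 7.92 ± 0.31.

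The largest decreases had a different order over the genotypes. ENSMUSG00000042607 was at 8.09, 8.24 and 8.22 in DxD and at 5.79, 5.48 and 5.91 in DxM, a difference of -2.46 (SE 0.11, adjusted p = 8.7e-06). It was at 6.13 ± 0.13 in MxM but at 7.58 ± 0.23 in MxD. The reciprocal hybrids differed by -1.85 (DxM minus MxD, SE 0.14, limma adjusted p = 8.0e-04). ENSMUSG00000020164 was at 10.04, 10.06 and 10.07 in DxD and at 8.19, 8.09 and 7.98 in DxM, a difference of -1.97 (SE 0.07, adjusted p = 2.1e-06). It was at 7.80 ± 0.18 in MxM and at 8.83 ± 0.23 in MxD, and DxM minus MxD was -0.75 (limma adjusted p = 0.012). The chromosome of neither gene was at hand. MxD males are sterile, and what sets the reciprocal hybrids apart here was not tested. That the DxM and DxD males of these 4 genes did not overlap was a condition of their choice.

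Symbols were at hand for 45 of the 7000 genes, and positions for them are from NCBI build 37. The study had picked these genes from the same arrays. They differed in the sterile MxD males from DxM and from at least 1 other genotype, and were postmeiotic genes with higher or mitotic genes with lower expression in MxD. DxM and DxD values entered that choice, so the genes' direction here is not independent evidence. Of the 45, 3 (6.67%) were called between DxM and DxD, against 17.8% of all genes. The genotypes did not overlap for 16 of them (35.6%), against 37.7%, and the blocked fit called 14 (31.1%), against 33.1%. The 45 genes consisted of 9 autosomal mitotic genes, 4 autosomal postmeiotic genes and 32 X-linked postmeiotic genes.

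Among the 9 autosomal mitotic genes none was called, with 3 positive and 6 negative differences between -0.21 and 0.16. Brwd1, which encodes a bromodomain and WD repeat protein that binds chromatin and is needed for male fertility (chromosome 16, 96214056), came nearest. It was at 6.80, 6.72 and 6.68 in DxD and at 6.54, 6.55 and 6.49 in DxM. All 3 hybrids were below all 3 DxD males, by -0.21 (SE 0.06, adjusted p = 0.059). With the replicate block the adjusted p was 0.023, so whether Brwd1 passes the threshold depends on the fit.

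Other genes that act on chromatin, DNA methylation or RNA differed by less. Dnmt3a, the de novo DNA methyltransferase that sets methylation in male germ cells (chromosome 12, 3806980), was at 5.36, 5.32 and 5.35 in DxD and at 5.26, 5.26 and 5.22 in DxM, a difference of -0.10 (95% interval -0.23 to 0.04, limma adjusted p = 0.30). Its groups did not overlap, but it lay at the dim end of the arrays. The difference of Baz2b, which encodes a bromodomain protein (chromosome 2, 59737420), was -0.07 (interval -0.21 to 0.07, limma adjusted p = 0.48). Meg3, a noncoding RNA expressed from the maternal copy (chromosome 12, 110784505), was at 5.83, 5.98 and 5.82 in DxD and at 5.97, 5.73 and 5.76 in DxM, with overlap and a difference of -0.06 (limma adjusted p = 0.68). The maternal copy of both genotypes was LEWES/EiJ.

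The remaining autosomal mitotic genes have varied functions. Mthfd1, an enzyme of folate-dependent one-carbon metabolism (chromosome 12, 77356395), was at 6.67, 6.64 and 6.63 in DxD and at 6.53, 6.48 and 6.48 in DxM, a difference of -0.15 (limma adjusted p = 0.12, or 0.062 with the block). Ppp1r15b, a subunit that directs a phosphatase to the translation factor eIF2alpha (chromosome 1, 135027960), was at 7.34, 7.21 and 7.28 in DxD and at 7.43, 7.37 and 7.52 in DxM, the largest positive difference of the group at 0.16 (limma adjusted p = 0.15). Neither gene's groups overlapped, and neither passed the threshold. Nup155, a nuclear pore component (chromosome 15, 8059350), differed by 0.10 (limma adjusted p = 0.30), again with DxM above DxD in every male. Usp48, a deubiquitinase (chromosome 4, 137149667), was at 7.85, 7.92 and 7.85 in DxD and at 7.78, 7.91 and 7.82 in DxM, with a difference of -0.04 (limma adjusted p = 0.74). Sirpa, the receptor for the "do not eat me" signal Cd47 (chromosome 2, 129418650), differed by 0.02 (limma adjusted p = 0.90), and its sign turned when DxD replicate 1 or DxM replicate 3 was left out.

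The 4 autosomal postmeiotic genes all had positive differences, none called, with a median of 0.10. Cyp17a1, the enzyme of androgen synthesis that marks Leydig cells (chromosome 19, 46741676), had the largest. It was at 9.84, 10.61 and 9.97 in DxD and at 10.61, 10.68 and 10.40 in DxM. The difference was 0.42, or 1.34-fold (SE 0.18, limma adjusted p = 0.15), with DxD replicate 2 as high as a hybrid. With the replicate block the adjusted p was 0.031, so Cyp17a1 passed the threshold in that fit but not in the main one. The size depended on single males: the difference was 0.27 without DxD replicate 1 (limma adjusted p = 0.32) and 0.66 without DxD replicate 2 (limma adjusted p = 0.011). Without both replicate 1 males it was 0.25 (limma adjusted p = 0.45). The sterile MxD males were higher still, at 11.23 ± 0.06, and DxM minus MxD was -0.67 (SE 0.10, limma adjusted p = 0.0071). Aqp8, a water channel (chromosome 7, 130605886), was at 7.85, 7.97 and 7.94 in DxD and at 8.09, 8.02 and 8.04 in DxM, a difference of 0.13 (limma adjusted p = 0.21). BC048507 (chromosome 13, 67964274) differed by 0.08 and Spinlw1, an epididymal and testicular protease inhibitor (chromosome 2, 164413843), by 0.04, neither called. The difference of Spinlw1 turned negative without DxD replicate 1.

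All 32 X-linked genes were postmeiotic, and in both genotypes their only copy came from LEWES/EiJ. Of these, 3 (9.38%) were called, all lower in DxM, against 17.8% of all genes called and 9.39% called lower. In all, 10 differences were positive and 22 negative, and the median was -0.06. The range was -0.50 to 0.25, and 13 genes lay within 0.1 of 0. The genotypes did not overlap for 9 genes (28.1%), against 37.7% of all genes, 8 lower and 1 higher in DxM. The mean of the 32 genes, as a deviation from the 6 males, was -0.008, 0.022 and 0.099 in DxD and -0.109, 0.023 and -0.027 in DxM. These ranges overlap, with DxM replicate 2 at the level of DxD replicate 2.

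The called genes lay at different places on the X chromosome. 4930402K13Rik (8681688) was at 6.70, 6.80 and 6.86 in DxD and at 6.22, 6.24 and 6.41 in DxM, a difference of -0.50, or 1.41-fold (SE 0.08, adjusted p = 0.0042). Efhc2, which encodes an EF-hand domain protein (16709262), was at 8.74, 8.70 and 8.80 in DxD and at 8.40, 8.42 and 8.51 in DxM, a difference of -0.30 (SE 0.07, adjusted p = 0.015). 1700013H16Rik (51046078) was at 7.99, 8.15 and 8.23 in DxD and at 7.58, 7.85 and 7.89 in DxM, a difference of -0.35 (SE 0.10, adjusted p = 0.048). In each of them all 3 hybrids were below all 3 DxD males. With a PWK/PhJ X chromosome, 4930402K13Rik was at 6.74 ± 0.15 in MxM and 7.11 ± 0.10 in MxD (SD, n = 3). Efhc2 was at 8.78 ± 0.12 in MxM and 9.22 ± 0.12 in MxD, and 1700013H16Rik was at 7.86 ± 0.19 in MxM and 8.63 ± 0.15 in MxD. The MxD levels were above those of DxM, as the choice of these genes requires. Across the alternatives the adjusted p ran from 0.0009 to 0.068 for 4930402K13Rik, from 0.0052 to 0.076 for Efhc2 and from 0.0037 to 0.20 for 1700013H16Rik. Without DxD replicate 2 or DxD replicate 3 only 1 of the 32 genes was called.

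The blocked fit called 12 of the 32 genes (37.5%), against 33.1% of all genes, 2 higher and 10 lower in DxM. Besides the 3 above, the lower genes were Tspan6, 1600014K23Rik, 1110059M19Rik, AL773568.19, Tsga8, 4933400A11Rik and 1700008I05Rik. Tspan6, a tetraspanin (130425609), was at 9.49, 9.59 and 9.64 in DxD and at 9.25, 9.44 and 9.37 in DxM, a difference of -0.22 (limma adjusted p = 0.080, or 0.020 with the block). Tsga8, a testis-specific gene (80732017), was among the brightest of the 32, at 11.87, 11.96 and 11.99 in DxD and at 11.68, 11.71 and 11.89 in DxM, a difference of -0.18 (limma adjusted p = 0.15, or 0.045 with the block). The groups of Tsga8 overlapped, and those of Tspan6 did not. The higher genes were 4933436I01Rik and Gm364. 4933436I01Rik (65173039) was at 7.26, 7.51 and 7.56 in DxD and at 7.62, 7.65 and 7.73 in DxM, a difference of 0.22 (limma adjusted p = 0.12, or 0.033 with the block). Gm364 (54662353) differed by 0.25 (limma adjusted p = 0.19, or 0.031 with the block). Without DxD replicate 1 the differences of 4933436I01Rik and Gm364 were 0.13 and 0.12, and without both replicate 1 males they were 0.15 and 0.19, with limma adjusted p of 0.18 and 0.17. Of the lower genes, 1700008I05Rik differed by -0.24 and 4933400A11Rik by -0.19, and without DxM replicate 1 by -0.11 and -0.09.

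None of the other X-linked genes named here was called. Of genes that encode proteins of the perinuclear theca or its cytoskeleton in the sperm head, Cypt3 was positive at 0.21 (limma adjusted p = 0.22) and Cypt5 at 0.08 (limma adjusted p = 0.50). Cylc1, which encodes cylicin 1, was negative at -0.15 (limma adjusted p = 0.29). Actrt1, an actin-related protein (43682184), was at 8.15, 8.19 and 8.30 in DxD and at 7.92, 8.21 and 8.06 in DxM, a difference of -0.15 with overlap (limma adjusted p = 0.28). Piga, an enzyme of GPI anchor synthesis (160857719), differed by -0.12 (95% interval -0.29 to 0.06, limma adjusted p = 0.34), a range that leaves a change in either direction possible.

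**Figure D4:**
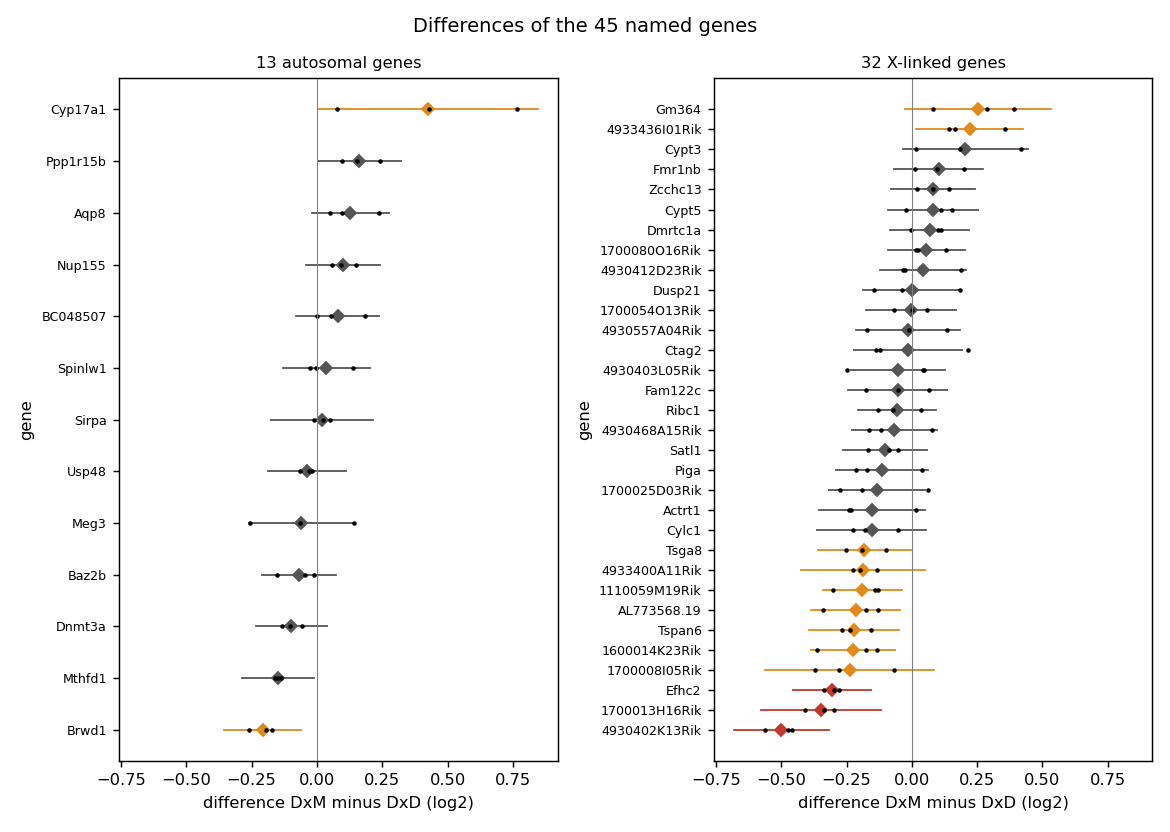
Difference DxM minus DxD (x axis, log2) of the 13 autosomal and the 32 X-linked named genes (y axis), with diamonds for the difference, lines for limma's 95% interval and dots for the differences within the 3 numbered pairs. Red marks the 3 genes called, 4930402K13Rik, Efhc2 and 1700013H16Rik, orange those not called in that fit but called with the replicate block (Brwd1, Cyp17a1 and 9 X-linked genes), and grey the rest.

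The MxD and MxM males allow the exchange of fathers to be looked at in males that share none of these samples. Both had a PWK/PhJ mother, and the fathers were LEWES/EiJ and CZECHII/EiJ. In limma's fit 1048 genes (15.0%) were called between MxD and MxM, 632 (9.03%) lower and 416 (5.94%) higher in MxD. Of the 592 genes called higher in DxM than DxD, where the M. musculus copy had been added, 377 (63.7%) were lower in MxD than MxM, where 1 M. musculus copy had been replaced. Over all genes with a positive DxM difference this share was 51.2%. Of the 592, 110 (18.6%) were called lower in MxD and 41 (6.93%) higher, against 8.84% and 5.34% of all genes with a positive DxM difference. Of the 35 genes higher by at least 1 in DxM, 32 (91.4%) were lower in MxD than MxM, 17 of them called, and none was called higher.

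The genes that were lower in DxM gave smaller shares in the opposite direction, and the difference between the 2 directions was not tested. Of the 657 genes called lower in DxM, 337 (51.3%) were higher in MxD than MxM, with 80 (12.2%) called higher and 91 (13.9%) called lower. Over all genes with a negative DxM difference these shares were 49.0%, 6.56% and 9.22%. Of the 21 lower by at least 1, 11 (52.4%) were higher in MxD, with 8 (38.1%) called higher and 5 (23.8%) called lower. Genes are not independent replicates, and across them the 2 sets of differences had a Pearson r of -0.12 over 7000 genes and -0.26 over the 1249 called ones. Without MxM replicate 3, the MxM male with the highest mitotic class mean, the share of the 592 that were lower in MxD was 60.0% and that of the 35 was 82.9%. That of the 657 that were higher in MxD stayed at 51.3%, and 12 of the 21 (57.1%) were then higher. MxD males are sterile, and their cell composition cannot be told apart here from the exchange of the father.

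**Figure D5:**
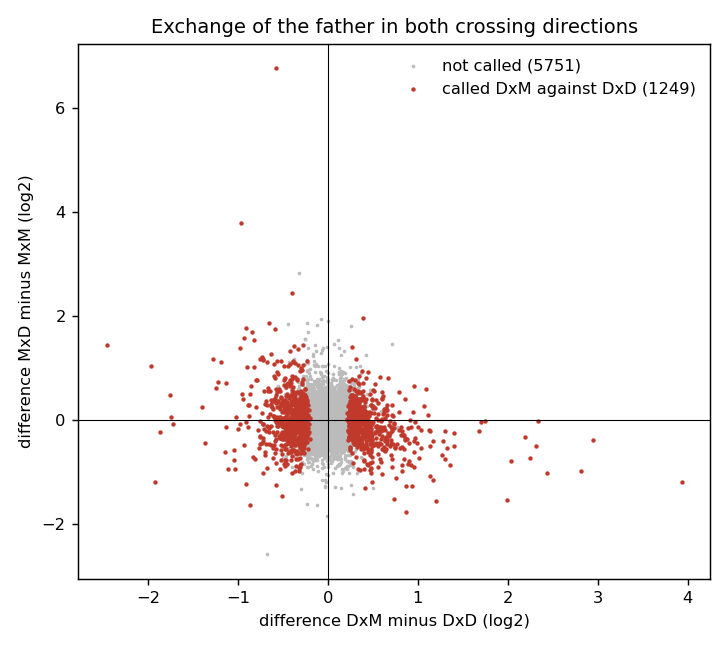
Difference DxM minus DxD (x axis, log2) against the difference MxD minus MxM (y axis, log2) for 7000 genes, with the 1249 genes called between DxM and DxD in red. The points at the far right, genes higher in DxM by at least 1, lie mostly below 0 (32 of 35), while the points at the far left lie on both sides (11 of 21 above 0).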

How the data were processed

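Total RNA from whole testis of 12 males (3 of each genotype) was hybridized to Affymetrix Mouse Genome arrays. The authors summarised probes with PLIER, which the submitters' processing notes also name, and used updated transcript definitions. They reported keeping genes detected in every male and then quantile normalizing the values across arrays. The deposited values are on a log2 scale, 1 per gene and male, and all 12 columns were read. No version of PLIER is given in the sources used here. Arrays have no read depth, so the number of males limits precision.

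The 6 DxM and DxD arrays were fitted alone with limma 3.58.1 (lmFit and eBayes, two-sided) in R 4.3.3, with Benjamini-Hochberg adjustment at 5% over 7000 genes. The code was tested on simulated data. Figures used Python 3.11.15 and matplotlib 3.10.9. MxD against MxM and DxM against MxD were fitted in the same way on their own arrays. Replicate numbers were taken to pair the males because every same-numbered DxD and DxM pair deviated together (r = 0.75, 0.43 and 0.16 across genes, all over 0.1), although DxD replicate 3 also correlated with DxM replicate 2 (r = 0.50) and DxD replicate 2 with DxM replicate 3 (r = 0.14). This comes from the values, as the sources do not say what a number marks. The block was thus chosen from the values that it tests, and its calls are not independent support for a gene. Deviations within a genotype are tied by their shared mean, so these correlations are not independent of each other.

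Genes, classes and lists were chosen with earlier results of these data known. The rule for named genes took called genes without overlap that had a symbol (4930402K13Rik, Efhc2 and 1700013H16Rik) and, from each of 5 lists with a named member, the member with the smallest p (Actrt1, Meg3, Cyp17a1, which stood for 2 lists, and Usp48). All other genes named were chosen after their values were seen. The others of 32 lists of known genes had no member among the 45 genes with a symbol and were not used here. Cell type and chromosome came from a shortened copy of the study's annotation with 1997 rows. Alternatives were all 12 arrays, the replicate block, the methods' t-test, other priors, normalizations, filters and thresholds, and leaving out each male. Leaving out both replicate 1 males, and MxM replicate 3, was added after seeing the data.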

Additional observations from a re-analysis of the deposited data

How the results depend on the processing

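The direction of the 1249 called genes was the same in every alternative that tested them, while the number of calls varied. That sameness was largely fixed in advance. Many alternatives keep the same mean difference. Leaving out 1 male cannot turn the sign of a gene whose males do not overlap, as held for 1248 of them. Calls numbered 2318 (1116 higher in DxM and 1202 lower) with the replicate block, 170 (85 and 85) when the methods' t-test left variances unequal, 777 (372 and 405) when it held them equal and 549 (254 and 295) at a Benjamini-Hochberg threshold of 1%. At an unadjusted p under 0.05 the methods' t-test called 1739 genes with unequal and 2054 with equal variances. With all 12 arrays and a shared spread 844 were called, 435 of them lower. Leaving out 1 male gave 623 to 1093 calls, 300 to 518 higher and 323 to 605 lower, and without both replicate 1 males 1071 were called, 925 of them shared with the 1249. The X-linked calls numbered 12 with the block, 0 with the t-test with unequal variances, 1 without the dimmest 25% of genes, 1 at a threshold of 1%, 7 at a threshold of 10%, and 1 to 3 with 1 male left out. Without the dimmest 25% of genes the median difference of mitotic genes was 0.121 and that of somatic genes 0.0576. With 1 male left out the medians were -0.0205 to 0.00957 for postmeiotic and 0.00328 to 0.0591 for somatic genes. With 1 male left out the difference of Sirpa ran from -0.0332 (without DxM replicate 3) to 0.0831 and was -0.0269 without DxD replicate 1. That of Spinlw1 ran from -0.0266 (without DxD replicate 1) to 0.0707 and was -0.0156 without both replicate 1 males. The cause of these changes was not tested, apart from the fewer males or genes that some alternatives leave. Among the genes named, the block changed the call of Brwd1, Cyp17a1 and 9 X-linked genes and of no other. All-12-array fits also called Brwd1 (adjusted p = 0.048) and 1600014K23Rik (adjusted p = 0.044), but did not call 1700013H16Rik (adjusted p = 0.092). The number of males limits precision, and a value at the bottom of the scale has only a bound.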
